A study of Homo sapiens with 6 samples.

Results

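The miR-17-92 polycistron is a run of 6 miRNA hairpins cut from a single long noncoding transcript, MIR17HG. Its mature miRNAs were examined here without those of the last hairpin, MIR92A1. The members were 8 mature miRNAs, matched by name in the first column of both count tables, out of 2588 listed in each: hsa-miR-17-5p, hsa-miR-17-3p, hsa-miR-18a-5p, hsa-miR-18a-3p, hsa-miR-19a-3p, hsa-miR-19b-3p, hsa-miR-20a-5p and hsa-miR-20a-3p (the human prefix hsa is left out from here on). The cells were A549, a line from a human lung adenocarcinoma, with an inducible shRNA (switched on by doxycycline) against METTL1. METTL1 is a methyltransferase that makes internal N7-methylguanosine (m7G). Both groups carried the knockdown, and doxycycline was given at 200 ng/ml with harvest on day 5. One group of 3 libraries held total RNA and the other group of 3 held RNA immunoprecipitated from heat-denatured RNA with an anti-m7G antibody (m7G-RIP). Per the study's methods the cells were a lentivirally transduced, puromycin-selected population. The tables hold miRNAs only, so the knockdown and the identity of the line were not tested here, and the growth text given for the m7G-RIP samples describes the medium of Caco-2 cells. No libraries with METTL1 intact or with a control antibody were analysed here, so the comparison asks only which miRNAs the antibody recovered, set against the remaining miRNAs of these knockdown cells.

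A miRNA hairpin is cut by DROSHA and then by DICER into a duplex, of which usually a single arm, the guide, is kept by an Argonaute protein while the other arm, the passenger, is discarded. The guide finds its target mRNAs through its seed, bases 2 to 8 from its 5′ end, so miRNAs with the same seed form a family. The miR-17-92 transcript is activated by MYC and by E2F factors, and it is known as an oncogene in lung and lymphoid tumours. Its products fall into the miR-17, miR-18, miR-19 and miR-92 seed families. miR-17-5p and miR-20a-5p are known to restrain E2F1, CDKN1A and the TGF-beta receptor TGFBR2.

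The mature sequences of the members are shown because their seeds define the families compared. They are RefSeq sequences (GRCh38.p14), written 5′ to 3′ with the seed in capitals, and all 8 members were matched by name. The miR-17 and miR-18 family guides come from 5p arms and the miR-19 family guides from 3p arms.
hsa-miR-17-5p: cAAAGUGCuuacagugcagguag
hsa-miR-20a-5p: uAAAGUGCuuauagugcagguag
hsa-miR-18a-5p: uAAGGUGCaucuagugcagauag
hsa-miR-19a-3p: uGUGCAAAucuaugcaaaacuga
hsa-miR-19b-3p: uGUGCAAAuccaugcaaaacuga
hsa-miR-17-3p: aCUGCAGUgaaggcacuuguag
hsa-miR-18a-3p: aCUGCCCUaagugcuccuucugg
hsa-miR-20a-3p: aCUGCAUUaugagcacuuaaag

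Counting positions from the 5′ end, miR-17-5p and miR-20a-5p differ at 2 bases (C1U and C12U, the miR-17-5p base first), and miR-19a-3p and miR-19b-3p differ at 1 base (U11C, the miR-19a-3p base first). The 3 other arms each have a seed of their own, and none of these seeds was found in another of the 2281 listed miRNAs with a RefSeq sequence. The miR-17 family seed was carried by 8 listed miRNAs, of which 6 had enough counts to be tested.

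The hairpins lie on the plus strand of chromosome 13 (GRCh38) within 787 bases. MIR17 lies at 91350605 to 91350688, MIR18A at 91350751 to 91350821, MIR19A at 91350891 to 91350972, MIR20A at 91351065 to 91351135 and MIR19B1 at 91351192 to 91351278. MIR92A1 follows after a gap of 35 bases, at 91351314 to 91351391. In GENCODE release 44 each of the 6 hairpins lies inside an exon of 3 of the 16 MIR17HG transcripts and inside an intron of 8 others. miR-19b-3p has a further gene, MIR19B2, on the minus strand of chromosome X at 134169671 to 134169766, and reads of the identical mature miRNA cannot be assigned to either gene.

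Total RNA libraries held from 9155690 to 10753443 counts and m7G-RIP libraries from 2649238 to 3106556. A read covers a whole mature miRNA of 22 or 23 bases, so levels are given as CPM (counts scaled to the size of the library, with TMM factors), with no correction for length. Differences were tested with edgeR's quasi-likelihood test over 620 miRNAs, and Benjamini-Hochberg adjusted p-values under 0.05 were called. The libraries are bulk, so fewer cells with a miRNA and fewer copies per cell cannot be told apart, and intervals from counts cover counting error only.

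All guide arms among the members, and also miR-17-3p, the arm opposite a guide, were lower in m7G-RIP than in total RNA. Of the 8 members, 7 were tested, 6 were called lower and 0 higher, where 29.2% of all miRNAs tested (181) were called lower and 23.5% (146) higher. With library size alone as the scaling, 141 were called lower and 216 higher. For these 6 the groups did not overlap, all m7G-RIP values being the lower, a pattern found in 36.5% of all miRNAs tested, while 29.5% had all m7G-RIP values higher and 0 members did. The median log2 ratio of the tested members was -3.12 against -0.074 over all miRNAs tested. The member counts and this median are descriptions, since miR-17-3p, miR-19a-3p and miR-19b-3p passed the expression filter through total RNA alone. The exception was miR-18a-3p, whose groups overlapped. The members together took 0.301%, 0.291% and 0.265% of the counts of the total RNA libraries, with exact binomial intervals no wider than 0.262% to 0.305%. In m7G-RIP they took 0.0535%, 0.0664% and 0.0606%. The mean share was 4.75-fold higher in total RNA (exact two-sided permutation p = 0.1, the smallest that 3 against 3 libraries can give). It was 8.62-fold with miR-21-5p left out of the totals.

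**Figure D1:**
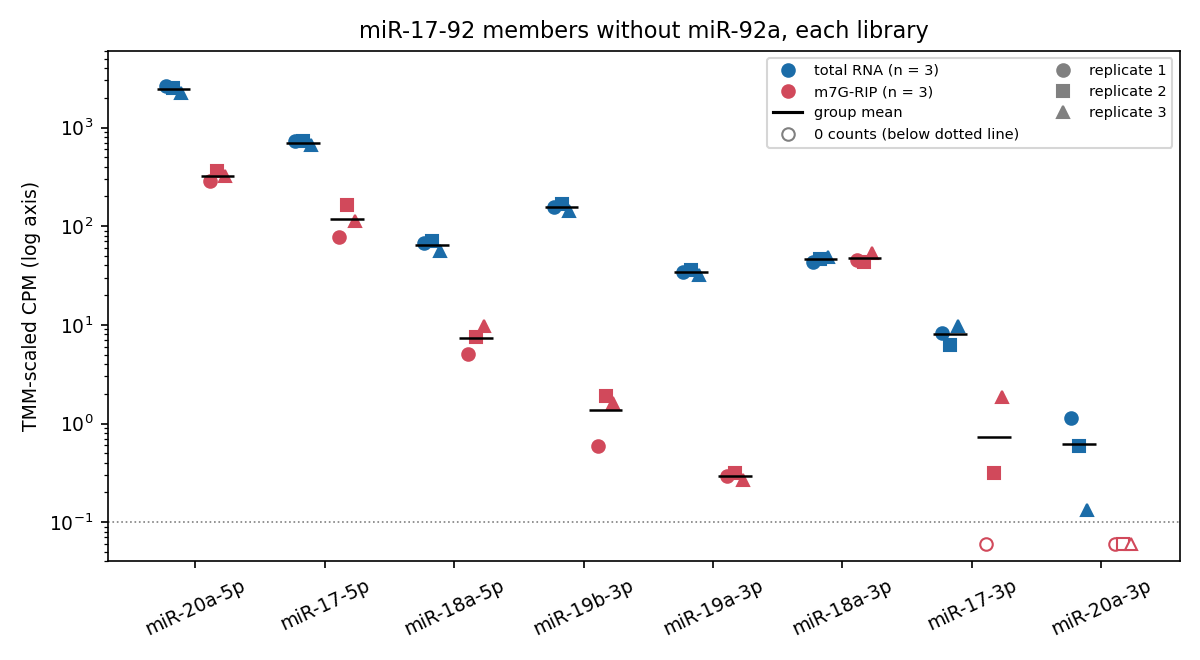
TMM-scaled CPM of each member on a log axis, with total RNA in blue and m7G-RIP in red; symbols mark replicates, bars the mean of 3 libraries, and open symbols below the dotted line libraries with 0 counts. The groups overlap for miR-18a-3p, with means of 46.3 and 47.2 CPM, while miR-19a-3p and miR-19b-3p are furthest apart.

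The miR-17 family made up most of the cluster. miR-20a-5p, its most abundant member, stood at 2617, 2496 and 2246 CPM in total RNA replicates 1, 2 and 3 and at 289, 359 and 326 CPM in m7G-RIP. The groups were far apart and the replicates of each lay close together. The mean fell from 2453 ± 189 to 325 ± 35.3 CPM (SD, n = 3), and the log2 ratio was -2.92 (SE 0.13, adjusted p 2.92e-07 by edgeR), which is 7.55-fold. By rank, miR-20a-5p was between the 36th and 39th most abundant miRNA of total RNA and between the 88th and 95th of m7G-RIP. miR-17-5p stood at 728, 727 and 658 CPM in total RNA and at 77.8, 163 and 112 CPM in m7G-RIP. Its m7G-RIP libraries varied more than those of miR-20a-5p, with replicate 2 highest, and all lay below total RNA. Its mean fell from 704 ± 40.1 to 118 ± 43.0 CPM (SD, n = 3), and the log2 ratio was -2.58 (SE 0.25, adjusted p 2.56e-05 by edgeR).

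The difference between both family members was within replicate error. The log2 ratio of miR-17-5p to miR-20a-5p counts, which does not depend on scaling, was -1.80 ± 0.0412 in total RNA and -1.53 ± 0.378 in m7G-RIP (SD, n = 3). The difference of 0.27 had overlapping libraries and an exact two-sided permutation p of 0.4, adjusted to 0.5 over 5 such ratios. Both have near-identical paralogs on chromosome X, miR-106a-5p (1 base from miR-17-5p) and miR-20b-5p (2 bases from miR-20a-5p), and reads may be divided among them in the authors' counting. These paralogs were scarce, at 16.8 ± 1.57 and 6.44 ± 0.950 CPM in total RNA (SD, n = 3).

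miR-18a-5p, the guide of the second hairpin and the sole tested member with the miR-18 seed, was at 67.6, 70.8 and 55.7 CPM in total RNA and at 5.01, 7.53 and 9.64 CPM in m7G-RIP. The groups did not overlap. The mean fell from 64.7 ± 7.94 to 7.39 ± 2.32 CPM (SD, n = 3), and the log2 ratio was -3.12 (SE 0.32, adjusted p 3.85e-05 by edgeR), which is 8.71-fold. This is close to the miR-17 family: the log2 ratio of summed miR-17 family counts to miR-18a-5p counts was 5.61 ± 0.0986 in total RNA and 5.94 ± 0.378 in m7G-RIP (SD, n = 3). The difference of 0.33 had overlapping libraries and an exact two-sided permutation p of 0.4, adjusted over the 5 ratios to 0.5.

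The miR-19 family was nearly absent from m7G-RIP. miR-19b-3p, the more abundant of the pair, had 1390, 1410 and 1087 counts in total RNA against 2, 6 and 6 counts in m7G-RIP, which is 157, 168 and 143 CPM against 0.589, 1.88 and 1.61 CPM. At an unchanged level, with TMM scaling, 1612 counts would have been found over the 3 m7G-RIP libraries, and 14 were. The pooled ratio was 115-fold lower, with an exact 95% counting interval of 68.5-fold to 211-fold (fitted log2 ratio -6.82, SE 0.34). miR-19a-3p had 306, 306 and 243 counts in total RNA, or 34.5, 36.4 and 32.0 CPM, and 1 count in each m7G-RIP library. Since both members of the family passed the expression filter through total RNA alone, the group where they are high, their edgeR calls are not given as support and the counts stand for themselves. Its pooled ratio rests on 3 m7G-RIP counts and was 118-fold, with an exact 95% counting interval of 40.3-fold to 574-fold. In order from the lowest fitted log2 ratio, miR-19b-3p was number 8 and miR-19a-3p number 9 of the 620 miRNAs tested. These places are a description too, as both entered the list through total RNA alone.

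**Figure D2:**
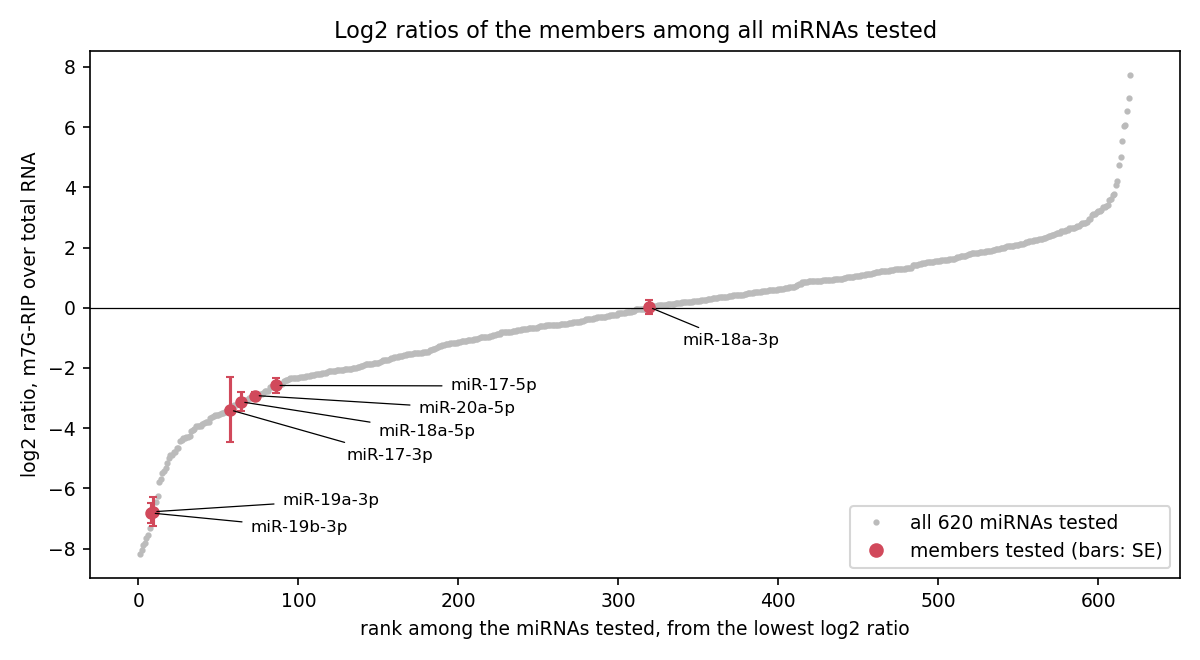
Fitted log2 ratio of m7G-RIP over total RNA (y axis) against rank from the lowest (x axis) for the 620 miRNAs tested in grey, with the 7 tested members in red and bars of 1 SE. The miR-19 pair stands near the bottom, 4 members lie between -3.39 and -2.58, and miR-18a-3p lies at 0.027 near the middle. The miR-19 pair and miR-17-3p passed the expression filter through total RNA alone, so their places are a description.

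Ratios of summed family counts within each library set the miR-19 family against the other guides, and with 3 against 3 libraries no such ratio can pass the 0.05 threshold. The log2 ratio of miR-17 family to miR-19 family counts was 4.13, 3.98 and 4.05 in total RNA replicates 1, 2 and 3 and 8.70, 7.89 and 7.87 in m7G-RIP. The groups did not overlap, and the difference of 4.10 is 17.1-fold (exact two-sided permutation p = 0.1, the smallest possible, adjusted over the 5 ratios to 0.25). The log2 ratio of miR-18a-5p to miR-19 family counts was -1.56 ± 0.0793 in total RNA and 2.21 ± 0.385 in m7G-RIP (SD, n = 3). That difference of 3.77 also had groups that did not overlap (exact two-sided permutation p = 0.1, adjusted 0.25). So miR-18a-5p had fewer counts than the miR-19 family in every total RNA library and more in every m7G-RIP library. Within the pair, the log2 ratio of miR-19a-3p to miR-19b-3p was -2.18 ± 0.0214 in total RNA and -2.06 ± 0.915 in m7G-RIP (SD, n = 3; exact two-sided permutation p = 1), and at 1 to 6 counts per library a difference was not detectable at this depth.

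As a share of the members' counts, the miR-19 family went from 5.48% ± 0.255 in total RNA to 0.322% ± 0.0954 in m7G-RIP (SD, n = 3). The miR-17 family took 91.1% ± 0.371 and 88.4% ± 2.10 (SD, n = 3). The share of miR-18a-3p rose from 1.34% ± 0.168 to 9.63% ± 1.87 (SD, n = 3), with no overlap between the groups. Each of these shares depends on the other members, and the exact two-sided permutation p was 0.1 for the miR-19 family and for miR-18a-3p and 0.2 for the miR-17 family.

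The arms of the miR-18a hairpin differed. miR-18a-3p, the arm opposite miR-18a-5p, was at 43.6, 46.8 and 48.6 CPM in total RNA and at 45.1, 43.0 and 53.5 CPM in m7G-RIP. The groups overlapped, with a log2 ratio of 0.027 (SE 0.22, adjusted p 0.920 by edgeR). It was called higher with library size alone as the scaling, at a log2 ratio of 0.58 (adjusted p 0.0455 by edgeR), a setting that moved the median of all miRNAs tested from -0.074 to 0.48. The direction of its small ratio was not stable, as it turned negative with no expression filter (-0.25).

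Scaling cancels when both arms of a hairpin are compared within a library. Of the reads of miR-18a, the 5p arm took 60.8%, 60.2% and 53.4% in total RNA replicates 1, 2 and 3 and 10.0%, 14.9% and 15.3% in m7G-RIP. The exact binomial 95% intervals reached from 49.9% to 63.9% in total RNA and from 5.93% to 21.4% in m7G-RIP. Thus the 5p arm held the larger part of the reads in each total RNA library and the smaller part in each m7G-RIP library. In total RNA replicate 3 its interval, from 49.9% to 56.9%, included an even split. The log2 ratio of 5p to 3p fell from 0.47 ± 0.241 to -2.66 ± 0.369 (SD, n = 3), a difference of -3.13 (SE 0.43). In limma over the 139 hairpin names with both arms tested, its adjusted p was 0.00133, where 19.4% of hairpin names were called lower and 23.7% higher, and 24.5% had every m7G-RIP library below every total RNA library, as miR-18a did. It was number 14 of the 139 from the lowest.

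The other hairpins are strongly one-sided and carry less information on arms. miR-17-3p, the arm opposite miR-17-5p, had 73, 52 and 74 counts in total RNA and 0, 1 and 7 in m7G-RIP, which is 8.24, 6.18 and 9.73 CPM against 0, 0.314 and 1.87 CPM. It passed the expression filter through total RNA alone, so its edgeR call is not given as support. The pooled ratio was 10.3-fold lower, with an exact 95% counting interval of 5.13-fold to 24.2-fold (fitted log2 ratio -3.39, SE 1.07), and m7G-RIP replicate 3 held 7 of its 8 m7G-RIP counts. The call (adjusted p 0.0250 by edgeR) was lost without total RNA replicate 1 (adjusted p 0.0691 by edgeR), without total RNA replicate 3 (0.0804) and without replicate 2 of m7G-RIP (0.0503). Leaving out replicate 3 of m7G-RIP gave a log2 ratio of -5.75. The log2 ratio of miR-17 arms was 6.41 ± 0.386 in total RNA and 7.15 ± 1.30 in m7G-RIP (SD, n = 3), and the difference of 0.74 was not past the threshold (SE 0.71, limma adjusted p 0.425). Without m7G-RIP replicate 3 the difference was 1.45 (limma adjusted p 0.0465), but miR-17-3p then had 0 and 1 counts in m7G-RIP. At such counts the ratio depends on the prior count: with 0.5, the difference over all libraries was 1.66. These values are a description, since miR-17-3p entered the test through total RNA alone.

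miR-20a-3p, the arm opposite miR-20a-5p, had 10, 5 and 1 counts in total RNA and 0 in every m7G-RIP library, and was not tested. Its mean of 0.618 CPM in total RNA is under the 0.876 CPM that 3 counts make on average in m7G-RIP. At an unchanged level, with TMM scaling, 6.63 counts would have been found over the 3 m7G-RIP libraries. A fold change is therefore not given.

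**Figure D3:**
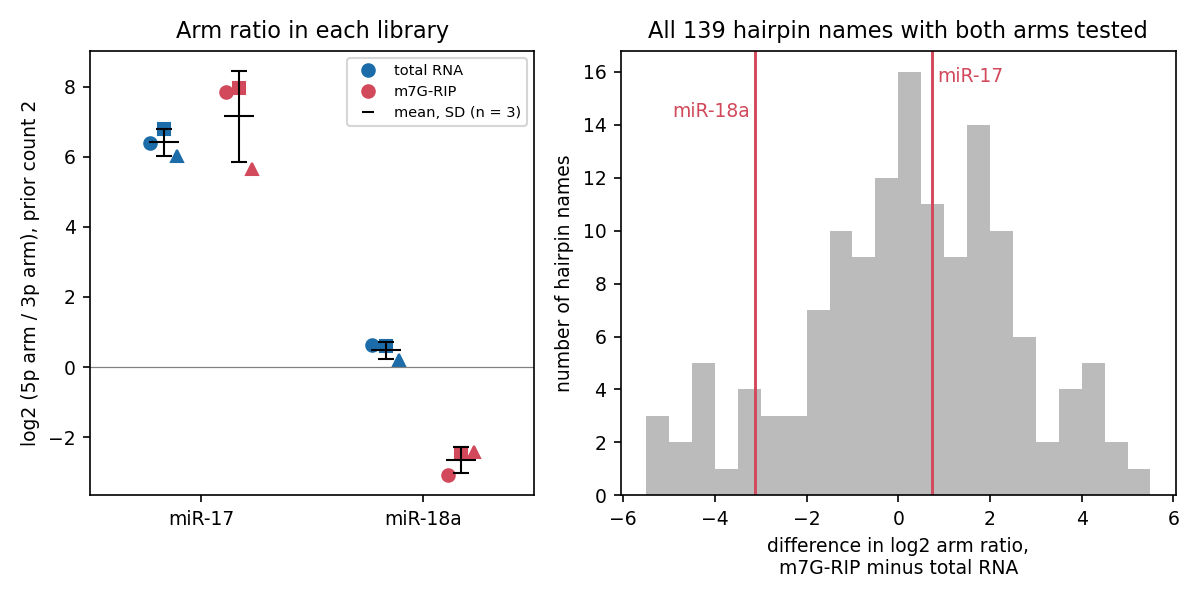
Left, log2 ratio of 5p to 3p CPM (prior count 2) in each library for miR-17 and miR-18a, with mean and SD of 3 libraries. Right, the number of hairpin names (y axis) by the m7G-RIP minus total RNA difference of that ratio (x axis, log2) for the 139 with both arms tested, with miR-18a at -3.13 and miR-17 at 0.74.

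The 5p arm of the last hairpin was higher in m7G-RIP. Of the 4 products of the polycistron outside the member list, 2 were tested, and both were called higher. Over all miRNAs tested, 23.5% were called higher, and 216 of 620 with library size alone as the scaling. miR-92a-1-5p, the 5p arm of MIR92A1 with 1 gene, was at 145, 137 and 174 CPM in total RNA and at 450, 512 and 455 CPM in m7G-RIP, a log2 ratio of 1.64 (SE 0.15, adjusted p 1.77e-05 by edgeR), and miR-92a-3p had a log2 ratio of 1.12. RefSeq lists 2 genes for miR-92a-3p, as for miR-19b-3p, so its counts and any ratio to it cannot be assigned to this transcript. The log2 ratio of miR-17 family to miR-92a-3p counts was -4.75 ± 0.276 in total RNA and -8.72 ± 0.293 in m7G-RIP (SD, n = 3), a 15.7-fold difference with no overlap (exact two-sided permutation p = 0.1, a ratio chosen after the values were seen). miR-19a-5p had no counts, and miR-19b-1-5p had from 0 to 6 counts per library.

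**Figure D4:**
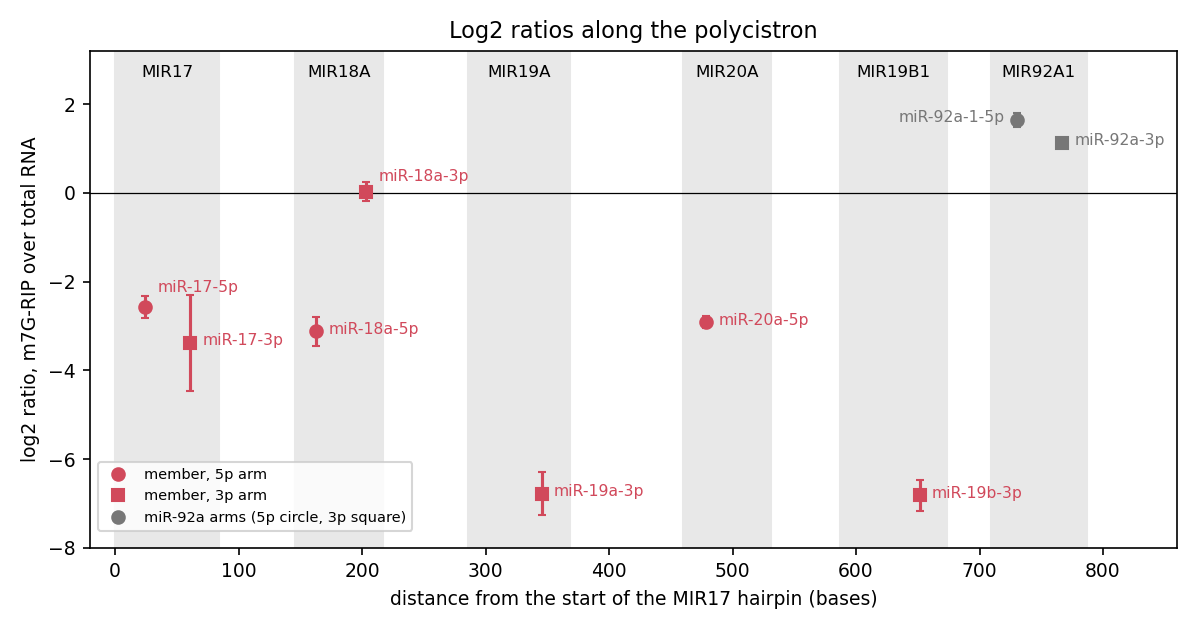
Log2 ratio of m7G-RIP over total RNA (y axis, bars 1 SE) for the tested miRNAs of the polycistron against distance from the start of the MIR17 hairpin in bases (x axis), with hairpins shaded, 5p arms as circles and 3p arms as squares; miR-19b-3p and miR-92a-3p, with 2 genes each, are drawn at their gene in this polycistron. The ratios do not follow the order of the hairpins: the miR-19 pair lies lowest at 2 separate places and the miR-92a arms lie above 0.

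The paralogous clusters gave values for the same seeds. Of the 8 listed miRNAs with the miR-17 seed 6 were tested and all 6 of these were called lower, against 29.2% of all miRNAs tested. The count is a description, since miR-20b-5p and miR-106b-5p passed the expression filter through total RNA alone. The sequences shown are those at the ends of their range of ratios, both from the miR-106b-25 cluster.
hsa-miR-106b-5p: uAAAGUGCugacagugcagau
hsa-miR-93-5p: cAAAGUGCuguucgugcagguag
miR-93-5p had a log2 ratio of -2.10 (SE 0.18, adjusted p 1.09e-05 by edgeR) and miR-106b-5p of -5.17 (SE 0.43). miR-106b-5p stood at 83.3, 92.2 and 60.4 CPM in total RNA and at 1.47, 3.77 and 1.34 CPM in m7G-RIP. Its distance from miR-20a-5p is 5 edits and both carry the same seed, with log2 ratios of -5.17 and -2.92, a difference that was not tested. miR-106a-5p and miR-20b-5p, on chromosome X, are the others of this seed. The former was lower (adjusted p 0.00277 by edgeR) and the latter rests on 2 to 4 counts per m7G-RIP library. Of the 4 listed first-named arms of the miR-106a-363 cluster 3 were tested, of which 2 were lower, and miR-363-3p just missed the threshold (log2 ratio -3.01, adjusted p 0.0501 by edgeR). Of the 3 first-named arms of the miR-106b-25 cluster, miR-106b-5p, miR-93-5p and miR-25-3p, 2 were lower, and miR-25-3p, of the miR-92 seed family, had a log2 ratio of -0.14 (adjusted p 0.266 by edgeR). The 6 other arms of the miR-106a-363 cluster had too few counts to test, and of the 3 of the miR-106b-25 cluster 1 was lower, 1 higher and 1 not called. miR-106b-3p, opposite miR-106b-5p, had a log2 ratio of 0.17 (adjusted p 0.296 by edgeR). It was also the more abundant arm in total RNA, at a mean of 1295 CPM against 78.6 CPM.

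Base composition was described because the study concerns m7G in G-rich sequence. A mature sequence was matched for 557 of the 620 miRNAs tested (89.8%). The 4 tested members with 7 G bases, miR-17-5p, miR-17-3p, miR-18a-5p and miR-20a-5p, had log2 ratios from -3.39 to -2.58, under the lower quartile of -2.05 among the 73 tested miRNAs with 7 G bases, whose median was -0.60. miR-19a-3p and miR-19b-3p have 4 G bases, and their ratios lay under the lower quartile of -2.32 among the 152 tested miRNAs with at most 4. Quartiles and medians here include the members. The places of miR-17-3p and the miR-19 pair are a description, since these entered the test through total RNA alone. miR-18a-3p, with 5 G bases, lay above the median of -0.72 among the 82 with 5. So miR-18a-3p had fewer G bases than its opposite arm and the higher ratio. Over all miRNAs tested, the 121 with 9 or more G bases had a median log2 ratio of 1.61.

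By G+C content, miR-18a-3p was the highest of the members at 56.5% and miR-19a-3p the lowest at 34.8%. The 180 tested miRNAs from 50% up to 60% had a median log2 ratio of 0.082 and the 78 under 40% had one of -0.97. miR-20a-5p and miR-19b-3p have the same G+C content of 39.1%, and their log2 ratios were -2.92 and -6.82. The counts do not measure whether a given base carries m7G.

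**Figure D5:**
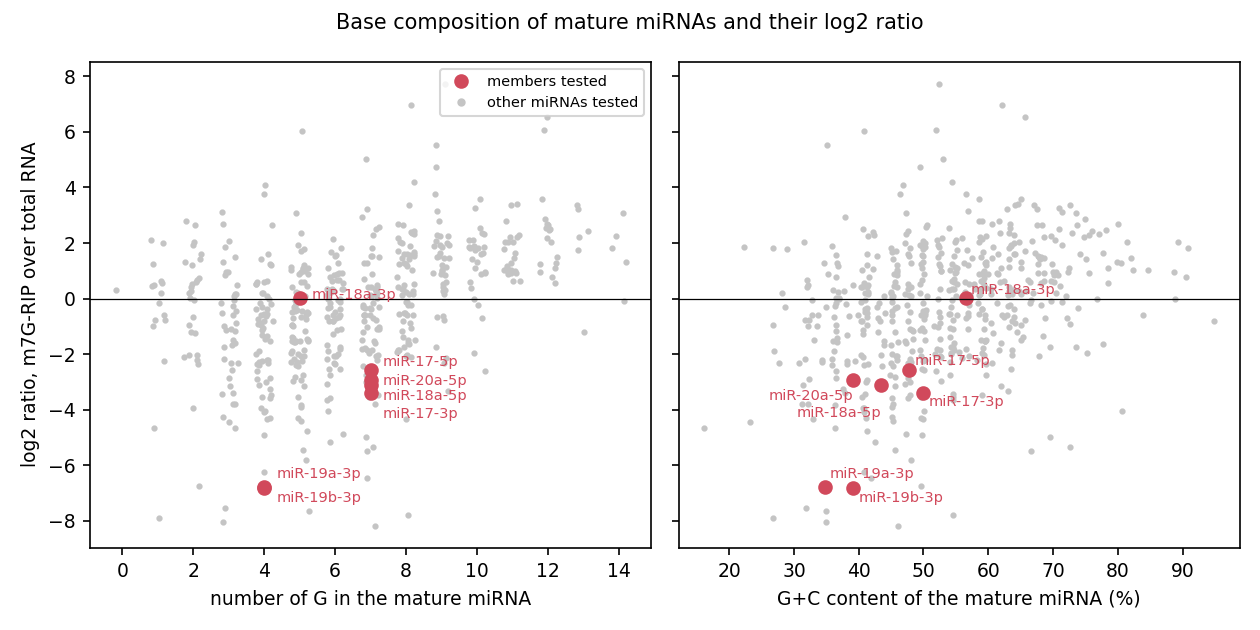
Log2 ratio of m7G-RIP over total RNA (y axis) against the number of G bases (left) and the G+C content in percent (right) of the mature miRNA, for the 557 tested miRNAs with a sequence; members are red and points are jittered sideways. The members with 7 G bases and the miR-19 pair lie low at their composition, and miR-18a-3p lies near 0.

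Over the 6 libraries, the patterns nearest to 3 members were sought among 300 tested miRNAs averaging 100 counts or more, by Euclidean distance of mean-centred log2 CPM. Nearest to miR-17-5p were miR-361-5p (distance 0.418, log2 ratio -2.84), miR-29a-3p (0.443, -2.40) and miR-452-5p (0.493, -2.35). Nearest to miR-19b-3p were miR-381-3p (1.79, -5.43), miR-106b-5p (2.13, -5.17) and miR-33b-3p (2.30, -5.34), none of them as close as those of miR-17-5p. Nearest to miR-18a-3p were miR-3615 (0.185, 0.087), miR-26b-5p (0.240, -0.055) and miR-30e-3p (0.240, 0.046).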

How the data were processed

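The 2 deposited tables, 1 for each group, hold raw read counts by mature miRNA. Per the authors' methods, Trimmomatic removed adaptors, STAR aligned whole reads to GRCh38 and kept reads with several alignments, and featureCounts gave the count of each mature miRNA of miRBase. The submitters' processing notes name Bowtie2 as well. How reads with several alignments were counted is not given in the sources used here, so near-identical members may share reads. Groups and replicate numbers were taken from sample titles, and nothing says whether replicates were separate cultures, so p-values measure the spread between these libraries.

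The main test was that of edgeR 4.0.16 under R 4.3.3 (TMM, default filter, robust quasi-likelihood test, no replicate block). CPM used effective library sizes. The SE of an edgeR log2 ratio was derived from its test, as the size of the ratio divided by the square root of the F value. Arm ratios, as log2 CPM with a prior count of 2, were tested with limma 3.58.1 (trend, robust), and ratios of summed counts with exact permutation tests. Chi-square per degree of freedom between replicates was 22.2 to 112, so each pair differed beyond counting noise. Simulated counts of 568 miRNAs, 182 of them changed, were called in the right direction for 76.9% of 4-fold and 37.8% of 2-fold changes in edgeR. For arm ratios in limma it was 62.2% of changes of at least 4-fold and 25.7% of 2-fold changes. Each miRNA was simulated from its mean over both groups, so members abundant in total RNA and nearly absent from m7G-RIP were not imitated. Members and lists were chosen with earlier results of these data known. Named were all members, the other products of the polycistron, their paralogs and the 3 nearest patterns for 3 members. Alternatives were scaling, filter, tool (DESeq2 1.42.0, limma-voom), a replicate block, summed paralogs and leaving out each library. The G+C measure, the counting intervals, a 2-fold threshold and the ratio to miR-92a-3p were added after the data were seen.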

Additional observations from a re-analysis of the deposited data

How the results depend on the processing

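The 6 members called lower kept that number with library size alone, DESeq2 size factors, no filter, the DESeq2 Wald test, limma-voom and a 2-fold threshold. These counts are descriptions, since miR-17-3p, miR-19a-3p and miR-19b-3p passed the expression filter through total RNA alone. Over all 620 miRNAs tested, 141 were called lower with library size alone, 183 with DESeq2 size factors and 219 with limma-voom. It was 219 of 1469 with no filter, and 212 of 927 in the DESeq2 Wald test. From 5 to 6 members were called lower in fits without a library, the loss in each case being miR-17-3p. Over all miRNAs tested, from 149 of 598 to 245 of 778 were called lower in these fits. With at least 10 counts in every library 3 members were called lower (133 of all 359 miRNAs tested), because 4 members could then be tested. With near-identical miRNAs summed, 5 were (176 of all 617 tested), the miR-19 pair then counting as 1. With library size alone 1 member, miR-18a-3p, was called higher, where 216 of all 620 miRNAs tested were. The log2 ratios of the 6 members called lower were smaller in size under that scaling. They were -2.04 for miR-17-5p, -2.37 for miR-20a-5p, -2.58 for miR-18a-5p, -2.86 for miR-17-3p, -6.25 for miR-19a-3p and -6.28 for miR-19b-3p. miR-18a-3p had a negative log2 ratio with no filter (-0.25) and at 10 counts (-0.032), and from -0.29 to 0.016 in fits without a library. It was never called lower. The arm difference of miR-18a ran from -3.27 to -2.92 in fits without a library and was called in each. That of miR-17 ran from 0.32 to 1.45. It was 1.66 with a prior count of 0.5, where it was not past the threshold. The fold between the members' shares was 8.62 without miR-21-5p in the totals, a change made by its counts leaving the totals, 5.09 without the 10 most abundant, and from 4.50 to 5.01 without a library. Without a library the miR-17 to miR-19 family difference was 3.83 to 4.24, and the miR-19a-3p to miR-19b-3p difference ran from -0.40 to 0.39.

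Libraries were not treated as paired by their number, as deviations from group means correlated at -0.0433, -0.101 and 0.0641. With the number as a replicate block, 6 members were called lower, the miR-18a arm difference was -3.13 (limma adjusted p 0.0082), and the paired miR-17 to miR-19 family difference was 4.10 (exact sign-flip p = 0.25). Depth limits miR-20a-3p, miR-17-3p and the miR-19 pair in m7G-RIP, where each had at most 7 counts per library.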
